A study of Mus musculus with 15 samples.

Results

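A set of 7 genes for GABA-A receptor subunits was examined in MGE-derived cortical interneurons on their way through the E14.5 mouse cortex: the alpha genes Gabra2, Gabra4 and Gabra5, the beta genes Gabrb1 and Gabrb2, and the gamma genes Gabrg1 and Gabrg3. They were taken by gene symbol, and all 7 were found among the 26835 genes of the Lhx6 table and the 25714 genes of the Mtg8 table. Each library came from the YFP-positive cells of 1 embryo on a mixed C57BL6/CBA background. Every embryo, controls included, carried Nkx2-1-Cre, which acts in the MGE and its descendants, with the R26R-YFP reporter. The Lhx6 comparison set 4 Lhx6+/+ controls against 5 Lhx6-/- mutants, and the Mtg8 comparison set 3 Mtg8+/+ controls against 3 libraries labelled Mtg8-/-, a line with LacZ inserted in the gene. Both mutations were present in all cells of the embryo and not only in the sorted lineage. The targeted gene went with the label in the Lhx6 table, where Lhx6 averaged a normalized count of 7247 in controls and 331 in mutants. It did not in the Mtg8 table, where Runx1t1, the gene of MTG8, averaged 8891 in controls and 12845 in those labelled mutant, with each of the 3 above any control. Runx1t1 was also higher in the Lhx6 mutants, at 17973 against 7449 in controls (log2 fold change 1.23, adjusted p = 0.0040 by limma). With dated or undated library names as a covariate, this log2 fold change was 0.73 and the call was lost. Sst, the marker of the interneuron subtype the study followed, averaged 16695 in the Mtg8 controls and 6615 in the labelled mutants, with each of the 3 below any control (log2 fold change -1.34, adjusted p = 0.0713 by limma). Sst passed the threshold by DESeq2 (9.25e-06), at a minimum mean of 50 (0.0493) and without labelled mutant 2 (0.0259), but not by edgeR (0.109) or without any other single library (0.116 to 0.314). These libraries are therefore called by their label throughout. Depth ranged from 12218422 to 22053032 reads over the 15 libraries. The sparsest members, Gabrb1 and Gabrg1, had 4 to 95 reads per library in the Lhx6 table.

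GABA-A receptors are pentameric chloride channels opened by GABA. Alpha and beta subunits form the GABA binding sites between them, and a gamma subunit is needed for the usual synaptic receptor and for its response to benzodiazepines. In immature neurons chloride is high inside the cell, so that the same channel depolarises it, and GABA released around migrating interneurons acts on their movement through these receptors. LHX6 is a LIM homeodomain factor of the MGE lineage that is needed for the specification and the migration of these interneurons, and MTG8 is a transcriptional co-regulator without DNA binding specificity of its own.

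Most of the members lie in clusters. Gabrg1 (ENSMUSG00000001260.10, chr5:70751047-70842617, minus strand), Gabra2 (ENSMUSG00000000560.9, chr5:70957597-71095849, minus), Gabra4 (ENSMUSG00000029211.11, chr5:71569749-71658308, minus) and Gabrb1 (ENSMUSG00000029212.11, chr5:71658113-72149037, plus) form one cluster on GRCm38. A second one holds Gabrg3 (ENSMUSG00000055026.13, chr7:56716465-57387188, minus) and Gabra5 (ENSMUSG00000055078.7, chr7:57407672-57510059, minus), with 20483 bases between them. Gabrb2 (ENSMUSG00000007653.12, chr11:42419757-42629028, plus) stands on another chromosome. The starts of Gabra4 and Gabrb1 overlap on opposite strands, and their exons share 46 bases. Counting was not stated to use strand, so that reads from this stretch cannot be told apart.

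Promoter sequence was read for the members whose levels turned out to differ between Lhx6 genotypes, and for Gabrg1, the chromosome 5 neighbour of Gabra2 whose level did not pass the test, since LHX6 belongs to a class of factors whose core motif is TAATTA. All 7 members were matched by symbol in the RefSeq promoters on GRCm38.p6, with 10 promoters among them. Each sequence below gives the 250 bases before the annotated start, 5′ to 3′ on the gene's own strand, with TAATTA in capitals.
Gabra2: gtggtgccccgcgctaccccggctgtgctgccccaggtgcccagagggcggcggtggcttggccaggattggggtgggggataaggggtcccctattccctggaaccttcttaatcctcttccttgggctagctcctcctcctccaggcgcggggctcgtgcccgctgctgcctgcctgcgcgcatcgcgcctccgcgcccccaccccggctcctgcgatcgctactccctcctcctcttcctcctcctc
Gabrg3: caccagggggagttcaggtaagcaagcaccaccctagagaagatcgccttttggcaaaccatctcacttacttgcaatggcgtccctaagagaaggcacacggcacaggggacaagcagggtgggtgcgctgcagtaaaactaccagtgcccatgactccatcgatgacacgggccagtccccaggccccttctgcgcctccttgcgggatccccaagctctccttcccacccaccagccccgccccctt
Gabrg1: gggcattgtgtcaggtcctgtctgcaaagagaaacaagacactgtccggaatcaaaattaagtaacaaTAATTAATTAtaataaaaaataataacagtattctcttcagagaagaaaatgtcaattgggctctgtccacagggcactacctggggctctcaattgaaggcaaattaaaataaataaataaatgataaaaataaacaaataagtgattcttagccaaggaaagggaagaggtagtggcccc
The Gabra2 sequence lies at chr5:71095850-71096099, that of Gabrg3 at chr7:57387216-57387465 and that of Gabrg1 at chr5:70842618-70842867, all on the minus strand. TAATTA reads the same on both strands. It was found in 1 of the 10 member promoters, that of Gabrg1, as 2 matches that overlap each other and begin 182 and 178 bases before the start. Over all 32851 promoters of this length, 1590 or 4.84% held the motif. The Gabra2 and Gabrg3 promoters held no match in this window. They also differed from that of Gabrg1 in base composition, with 70.0% GC in Gabra2 and 60.4% in Gabrg3 against 35.6% in Gabrg1, where the median of all promoters was 52.4%.

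The first question was which of these subunits the control cells expressed most. Levels between genes were compared per exon length, as TPM, in which reads are divided by exon length and scaled to the same total in each library. In the 4 Lhx6 controls Gabra2, the alpha subunit typical of the embryonic forebrain, was the highest member at 10.2 ± 2.09 TPM (SD, n = 4), above each other member in every library. Gabra5, the alpha subunit of many extrasynaptic receptors, followed at 4.23 ± 1.102 TPM and Gabrb2 at 3.88 ± 0.859 TPM. Their ranges overlapped, and Gabra5 was the higher in 2 of the 4 libraries. Gabra4, another alpha subunit found largely outside synapses, had 2.63 ± 0.560 TPM, which overlapped with Gabrb2 in range although it was lower in each of the 4 libraries. Gabrg3 stood at 0.856 ± 0.119 TPM, below the range of Gabra4. Gabrb1 at 0.316 ± 0.0840 TPM and Gabrg1 at 0.292 ± 0.0790 TPM came last and overlapped in range.

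The Mtg8 controls had the same member on top but another order below it. Gabra2 stood at 16.5 ± 7.23 TPM (SD, n = 3) and Gabrb2 at 9.27 ± 2.36 TPM, with overlapping ranges and Gabra2 the higher in each of the 3 libraries. Gabra5 had 1.83 ± 0.458 TPM, below the range of Gabrb2. Gabra4 at 1.05 ± 0.246 TPM and Gabrg3 at 1.02 ± 0.378 TPM overlapped, and Gabrg3 overlapped with Gabrg1 at 0.466 ± 0.140 TPM. Gabrb1 was the lowest at 0.148 ± 0.0277 TPM. Both control groups thus had Gabra2 first and at most 1.30 TPM in any library for Gabrb1, Gabrg1 and Gabrg3. The ranges of the control groups were apart for some members, and the share of all genes for which this holds was not counted. Gabra5 was at 2.80 TPM or more in the Lhx6 controls and at most 2.36 TPM in the Mtg8 controls, Gabra4 at least 1.81 and at most 1.23 TPM, and Gabrb1 at least 0.203 and at most 0.174 TPM. Gabrb2 was the reverse, with at most 4.98 TPM in the Lhx6 controls and at least 7.05 TPM in the Mtg8 controls. The 2 tables were normalized separately and come from different embryos, and the difference between their controls was not tested.

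**Figure D1:**
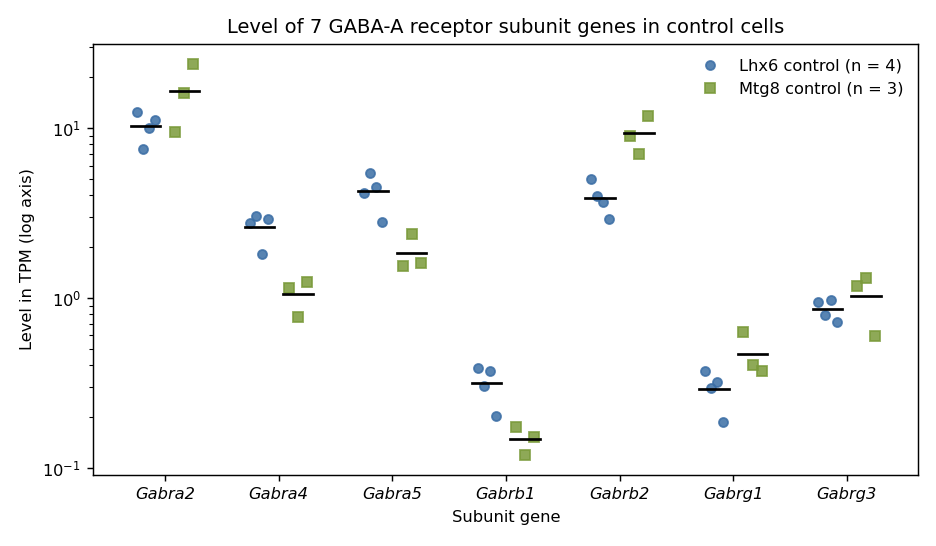
Level of the 7 subunit genes in control cells in TPM on a log axis, 1 point per library (circles, 4 Lhx6 controls; squares, 3 Mtg8 controls) with a line at each group's mean. Gabra2 is the highest member in both groups, and Gabrb1 and Gabrg1 lie below 1 TPM in every control library.

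The 7 members were not the whole of the receptor's genes. Of the autosomal subunit genes on the list used here, 12 were in the Lhx6 table and 11 in that of Mtg8, and the members made up 34.6% ± 1.44 (SD, n = 4) of their summed TPM in Lhx6 controls and 36.2% ± 4.62 (n = 3) in Mtg8 controls. By mean TPM, Gabra2 had rank 3 among all of them in both control groups. In the Lhx6 mutants the members' share was 51.2% ± 7.66 (n = 5), with Gabra2 at rank 1 by mean TPM. Within the members, the alpha genes summed to 17.1 ± 1.49 TPM in Lhx6 controls, the beta genes to 4.19 ± 0.927 TPM and the gamma genes to 1.15 ± 0.191 TPM. In Lhx6 mutants these sums were 41.4 ± 16.2, 5.74 ± 3.16 and 5.79 ± 1.78 TPM. The gamma members were thus well below the beta members in controls and close to them in mutants. Gabrr1 and Gabrr2, the genes of rho subunits, which are best known from the retina, were below the minimum mean of 10 normalized counts and were not tested, with means of 0.665 and 8.55 in Lhx6 controls.

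The second question was which subunits differed in the absence of Lhx6. Gabra2 and Gabrg3 rose, 2 of the 7 members, where 1.71% of the 16727 genes tested passed an adjusted p of 0.05 by limma and 1.03% passed it with a higher level. Both were also higher in all 5 mutants than in all 4 controls, which held for 3.19% of all genes. Neither of the called members belonged to the beta class, and no member fell past the threshold. RNA of sorted cells was measured in bulk, so that more cells with a transcript and more transcript per cell cannot be told apart.

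Gabrg3 encodes a gamma subunit that is sparse in most of the mature brain. Its normalized counts in the Lhx6 controls 1, 2, 3 and 4 were 84.6, 76.2, 89.4 and 70.98. In mutants 1, 2, 3, 5 and 6 they were 577, 604, 714, 412 and 347. The controls lay close together and each mutant was above all of them, by a wide margin even for the lowest, mutant 6. Controls averaged 80.3 ± 8.25 (SD, n = 4) and mutants 531 ± 149 (SD, n = 5), a 6.61-fold difference. The log2 fold change was 2.67 ± 0.23 (SE; 95% interval 2.16 to 3.17), with an adjusted p of 3.99e-05 by limma and 0.00794 by an exact two-sided permutation test, the smallest p that 4 libraries against 5 can give. As a level, Gabrg3 went from 0.856 TPM in controls to 5.39 ± 1.67 TPM in mutants, from below the range of Gabra4 to within the ranges of Gabra5 and Gabrb2.

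Gabra2 had normalized counts of 711.4, 461, 590 and 702.1 in controls 1, 2, 3 and 4. In mutants 1, 2, 3, 5 and 6 it had 2297, 3586, 1783, 2140 and 830. All 5 mutants were above all 4 controls, but mutant 6 was close to the highest control while the others were far from it. Its means were 616 ± 117 and 2127 ± 995, a 3.45-fold difference. This was a log2 fold change of 1.66 ± 0.33 (SE; 95% interval 0.95 to 2.37), with an adjusted p of 0.0199 by limma and a p of 0.0159 by the exact permutation test. This call was less firm than that of Gabrg3. Without control 1, 2, 3 or 4 or without mutant 5 the adjusted p by limma was 0.0528, 0.0823, 0.0608, 0.0536 or 0.0609, with log2 fold changes from 1.53 to 1.74. Without mutant 6 it was 0.000529, with a log2 fold change of 1.96.

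The library names fall into dated and undated ones, a difference the sources do not explain. All 4 Lhx6 controls and mutant 6 had undated names, and the other 4 mutants had dated ones, so that name style and genotype are largely confounded. Among the undated libraries, mutant 6 against the 4 controls, Gabrg3 differed by 2.10 on the log2 scale, and with name style as a covariate its adjusted p was 0.0225 by limma. Gabra2 differed by 0.45 among the same libraries, with an adjusted p of 0.99998, and its call was lost. The genotype term of this fit rests on mutant 6 as the only library of its arm, which is assumed to vary like the others. The names also start with codes, and 1 code occurs in both Lhx6 groups, in controls 1 and 2 and mutant 6. Among these 3 libraries Gabrg3 differed by 2.10 and Gabra2 by 0.53 on the log2 scale, values added after the data were seen and without a test. What the codes stand for is not given in the sources used here. With the covariate 0.341% of all genes were called, against 1.71% without it.

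**Figure D2:**
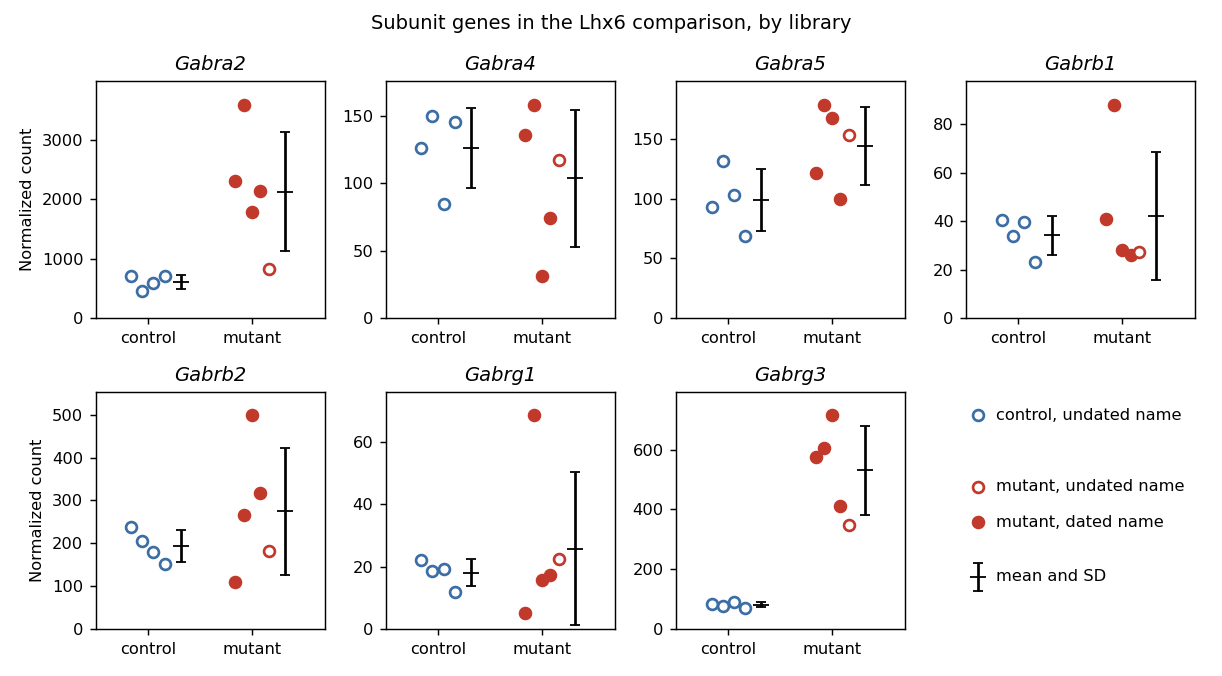
Normalized counts of the 7 members in each library of the Lhx6 comparison, 1 panel per gene with its own linear axis from 0 (blue, 4 controls; red, 5 mutants; filled, dated library name; open, undated; bars, mean and SD). Gabra2 and Gabrg3 are higher in every mutant than in every control, with the undated mutant the lowest of the 5 in both, and Gabrb1 and Gabrg1 each have 1 mutant far above the rest.

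The other alpha members did not pass the test. Gabra5 had 93.3, 131, 103 and 68.4 normalized counts in controls 1, 2, 3 and 4, and 121, 179, 168, 99.8 and 154 in mutants 1, 2, 3, 5 and 6. The groups overlapped, although all 5 mutants were above the control mean. Its log2 fold change was 0.54 (95% interval -0.029 to 1.12), with an adjusted p of 0.419 by limma. Gabra4 had 125.9, 150, 84.8 and 145 in controls and 136, 158, 31.7, 74.6 and 118 in mutants. Mutants 3 and 5 were below all controls and mutant 2 above them, and the log2 fold change was -0.45 (95% interval -1.35 to 0.46; adjusted p = 0.668 by limma), which was -0.074 without mutant 3.

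Neither beta gene passed it. Gabrb2, a beta subunit of the most common receptors of the adult cortex, had 238, 205, 179 and 152 normalized counts in controls and 110, 267, 498, 317 and 182 in mutants. The mutants spread on both sides of the controls, from 110 in mutant 1 to 498 in mutant 3. For Gabrb2 the log2 fold change was 0.35 (95% interval -0.43 to 1.13; adjusted p = 0.697 by limma), and it was 0.088 without mutant 3 and 0.63 without mutant 1. Gabrb1 had 40.4, 33.7, 39.6 and 23.1 in controls and 40.8, 87.9, 27.9, 26.2 and 27.2 in mutants. Only mutant 2 was far above the controls. Its log2 fold change was 0.15 (95% interval -0.76 to 1.07; adjusted p = 0.892 by limma), and it turned to -0.15 without mutant 2.

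Gabrg1, the gamma gene next to Gabra2, likewise did not pass. It had 22.1, 18.61, 19.3 and 11.97 normalized counts in controls and 4.95, 68.5, 15.8, 17.4 and 22.3 in mutants, so that mutant 2 was the highest library and mutant 1, with 4 reads, the lowest. Its log2 fold change was 0.085 (95% interval -1.28 to 1.45; adjusted p = 0.961 by limma), and it was -0.37 without mutant 2 and 0.52 without mutant 1. The interval is wide on both sides of 0, so that a moderate change of Gabrg1 was not detectable here.

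The third question was the same for Mtg8. None of the 7 members passed an adjusted p of 0.05 by limma in the libraries labelled Mtg8 mutant, and neither did any of the 16132 genes tested (0%). Of all genes, 886 or 5.49% had an unadjusted p under 0.05. On the recovered reads edgeR called 1 of the same genes, and DESeq2 called 31 of 25714 genes, a wider set. The exact permutation test cannot go below 0.1 with 3 libraries against 3.

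Gabra5 and Gabra4 were the members whose groups did not overlap. Gabra5 had 40.2, 64.0 and 45.0 normalized counts in controls 1, 2 and 4 and 90.6, 79.0 and 102 in labelled mutants 2, 3 and 4. All 3 labelled mutants were above all 3 controls. This gave a log2 fold change of 0.87 (95% interval 0.17 to 1.57), with an unadjusted p of 0.0186 and an adjusted p of 0.859 by limma. Gabra4 had 61.5, 42.7 and 70.4 in controls and 99.7, 108 and 71.9 in labelled mutants. Labelled mutant 4 was just above control 4. For Gabra4 the log2 fold change was 0.68 (95% interval -0.036 to 1.398; adjusted p = 0.859 by limma). Of all genes tested, 4.68% were higher in all 3 labelled mutants than in all controls.

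Gabra2 had 639, 1119 and 1714 normalized counts in controls 1, 2 and 4 and 546, 1068 and 710.9 in labelled mutants 2, 3 and 4. The controls alone were widely spread, and the groups overlapped with all 3 labelled mutants below the control mean. For Gabra2 the log2 fold change was -0.52 (95% interval -1.26 to 0.22; adjusted p = 0.867 by limma), and it was -0.18 without control 4 and -0.89 without control 1. Gabrb2 had 506, 408 and 701.4 in controls and 489, 221 and 451 in labelled mutants. Its log2 fold change was also -0.52 (95% interval -1.21 to 0.17; adjusted p = 0.866 by limma), with all 3 labelled mutants below the control mean, and it was -0.16 without labelled mutant 3.

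Gabrg3, the member with the largest difference in the Lhx6 comparison, had 124, 142 and 66.5 normalized counts in the Mtg8 controls and 113, 101 and 131 in labelled mutants. The labelled mutants all lay within the range of the controls. The log2 fold change was 0.12 (95% interval -0.60 to 0.83; adjusted p = 0.967 by limma). The upper end of this interval is below the lower end of the interval in the Lhx6 comparison, 2.16, but the intervals come from separate fits and the gap between them was not tested. Gabrb1 had 21.2, 14.9 and 19.6 in controls and 58.9, 14.7 and 15.3 in labelled mutants. Its log2 fold change of 0.36 (adjusted p = 0.943 by limma) was -0.28 without labelled mutant 2. Gabrg1 had 43.6, 28.8 and 27.4 in controls and 49.8, 29.4 and 27.5 in labelled mutants, a log2 fold change of 0.075 (adjusted p = 0.983 by limma).

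**Figure D3:**
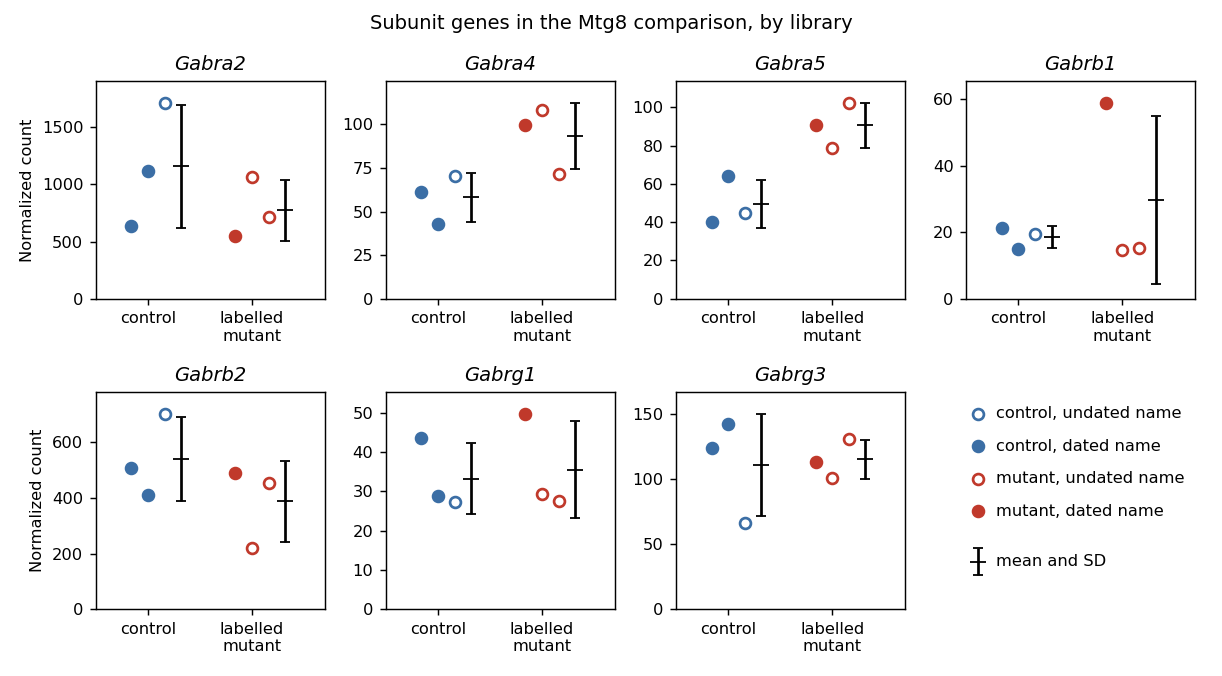
Normalized counts of the 7 members in each library of the Mtg8 comparison, drawn as for Lhx6 (blue, 3 controls; red, 3 libraries labelled mutant; filled, dated library name; open, undated; bars, mean and SD). The groups overlap for every member except Gabra4 and Gabra5.

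In the Mtg8 comparison both name styles were present in each group, with controls 1 and 2 and labelled mutant 2 dated, with 1 name code shared by all 3, and the other libraries undated. The Gabra5 difference was 0.82 among dated and 0.98 among undated libraries on the log2 scale, and that of Gabra2 -0.63 and -0.98. Those of Gabrg3 (-0.23 and 0.78), Gabrb2 (0.11 and -1.15) and Gabrb1 (1.67 and -0.36) had opposite signs in the 2 styles. Each of these values rests on 3 libraries and has no test.

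**Figure D4:**
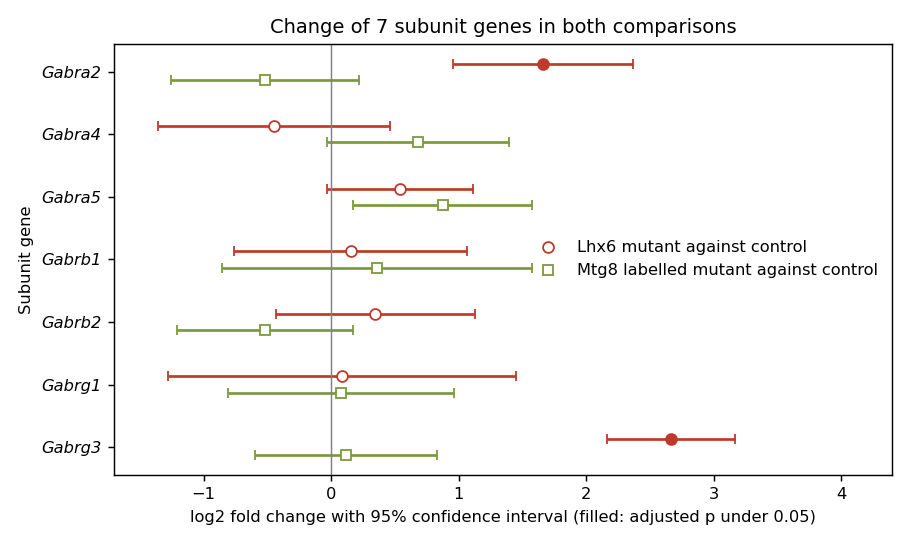
log2 fold change of mutant over control with its 95% interval by limma for each member (circles, Lhx6 comparison, 4 against 5 libraries; squares, Mtg8 comparison, 3 against 3; filled, adjusted p under 0.05). In the Lhx6 comparison the intervals of Gabra2 and Gabrg3 lie wholly above 0, and in the Mtg8 comparison that of Gabra5 does so without passing adjustment over all genes.

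The make-up of the members within a library does not depend on the scaling between libraries, and 3 shares were compared in each table, 6 comparisons in all, by exact two-sided permutation tests with Benjamini-Hochberg adjustment. Of the summed TPM of the 2 gamma members, Gabrg1 held 28.4%, 27.0%, 24.7% and 20.4% in Lhx6 controls 1, 2, 3 and 4. In mutants 1, 2, 3, 5 and 6 it held 1.29%, 14.7%, 3.25%, 6.04% and 8.88%. Each mutant was below each control, and the mean share fell from 25.1% ± 3.51 to 6.82% ± 5.24 (exact p = 0.00794, adjusted p = 0.0476). The normalized count of Gabrg1 itself did not pass the test above, while that of Gabrg3 did. With 2 gamma members the share of one fixes that of the other, so that this test adds no evidence independent of the Gabrg3 call. With every gamma subunit of the list in the denominator the difference was -0.11 percentage points, with an adjusted p of 0.897.

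Among the alpha members, Gabra2 held 64.1%, 46.7%, 61.3% and 66.2% of the summed TPM in Lhx6 controls and 82.6%, 84.5%, 79.1%, 85.9% and 60.5% in mutants. Mutants 1, 2, 3 and 5 were above all controls and mutant 6, the undated one, was within their range. The means were 59.6% ± 8.81 and 78.5% ± 10.4 (exact p = 0.0397, adjusted p = 0.119). In the Mtg8 table Gabra2 held 78.0%, 83.7% and 89.4% in controls and 60.4%, 75.9% and 66.8% in labelled mutants. The groups did not overlap, with means of 83.7% ± 5.69 and 67.7% ± 7.79, and the exact p of 0.1 (adjusted p = 0.2) is the smallest the design allows. Gabrb1 held 7.50% ± 1.199 of the beta members in Lhx6 controls and 8.07% ± 5.50 in mutants (exact p = 0.825), and 1.603% ± 0.316 and 3.25% ± 1.87 in the Mtg8 table (exact p = 0.3). In the latter table Gabrg1 held 32.2% ± 7.76 and 31.6% ± 7.96 of the gamma members (exact p = 1).

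**Figure D5:**
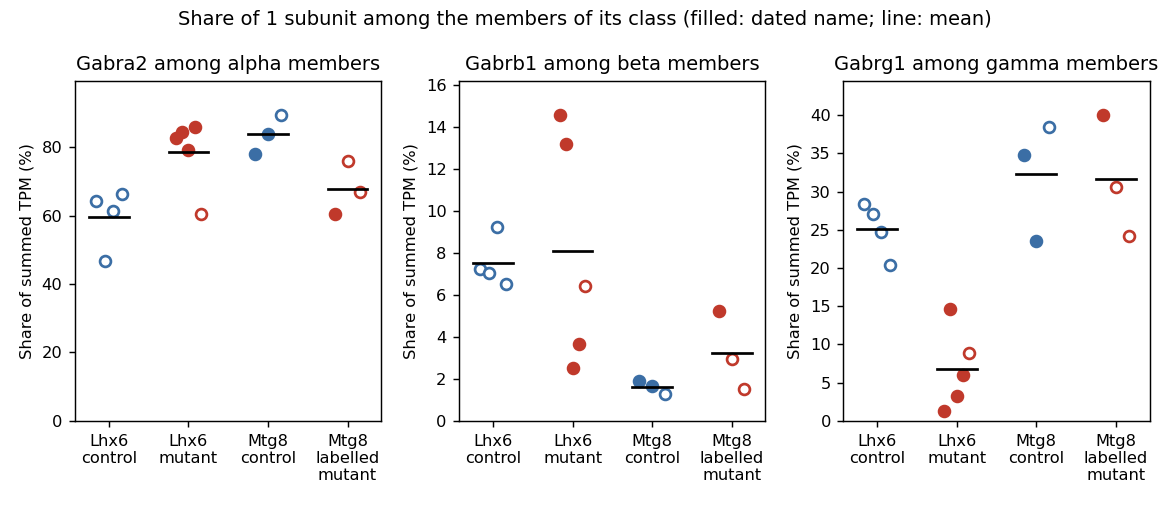
Share of summed TPM held by Gabra2 among the 3 alpha members, Gabrb1 among the 2 beta members and Gabrg1 among the 2 gamma members, in percent on linear axes from 0, 1 point per library (blue, control; red, mutant or labelled mutant; filled, dated name; line, mean). The Gabrg1 share is lower in all 5 Lhx6 mutants than in all 4 controls, and the Gabra2 share is lower in all 3 libraries labelled Mtg8 mutant than in their controls.

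The log2 ratio of adjacent members was compared for 3 pairs in each table, a measure chosen after their values were seen. Gabra2 and Gabra4, which are also adjacent on chromosome 5 with 473899 bases between them, were not compared in this way. Gabrg3 over Gabra5, which lie 20483 bases apart on the same strand, went from -0.27 ± 0.36 in Lhx6 controls to 1.86 ± 0.42 in mutants. This difference of 2.12 separated the groups (exact permutation p = 0.00794, adjusted p = 0.0476 over 6 comparisons) and lay between 1.95 and 2.29 with any 1 library left out. It adds no evidence independent of the Gabrg3 call. Gabra2 over Gabrg1, 114979 bases apart, differed by 1.57 with overlapping groups (exact permutation p = 0.0556, adjusted p = 0.167). Gabra4 over Gabrb1 differed by -0.60 (adjusted p = 0.369 by the same exact test). In the Mtg8 table Gabrg3 over Gabra5 was 1.097 ± 0.52 in controls and 0.34 ± 0.018 in labelled mutants, without overlap (exact permutation p = 0.1, adjusted p = 0.2). The other Mtg8 pairs overlapped, with differences of -0.60 for Gabra2 over Gabrg1 (exact permutation p = 0.5) and 0.32 for Gabra4 over Gabrb1 (exact permutation p = 0.7).

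A further transcript from within the Gabrg3 gene was measured. Gm17984, annotated as a processed pseudogene at chr7:56804605-56805463 on the same strand, shares no exon bases with Gabrg3. It had a mean of 16.7 normalized counts in the Lhx6 table and a log2 fold change of 2.53 (adjusted p = 0.0311 by limma), near the 2.67 of Gabrg3. In the Gabrb1 gene, Gm15616 lies on the same strand without shared exon bases and had 3488 reads over the 9 Lhx6 libraries, where Gabrb1 had 357. The exons of Gabra5 share 148 bases with Gm9962 on the other strand, which had 16 reads in all against 1135. These genes were picked out by their position.

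Across the 9 Lhx6 libraries Gabra2 and Gabrg3 varied together, with a Pearson correlation of 0.89 between their log2 values and of 0.58 after the group means were removed. These are descriptions without a test, over libraries that differ in genotype, name style and depth. Gabra4 and Gabrb2 ran in opposite directions (-0.73, and -0.70 within groups). Gabrb1 and Gabrg1 had a correlation of 0.58 in the Lhx6 table and of 0.84 over the 6 libraries of the Mtg8 table. The genes whose log2 values followed Gabrg3 most closely were Slc1a2, a glutamate transporter gene (r = 0.99), and Fign (r = 0.99). Slc1a2 and Fign were higher in mutants by 2.46 and 3.51 on the log2 scale (adjusted p = 1.13e-05 and 3.54e-06 by limma). Both were picked for following Gabrg3 over libraries of both genotypes, so that these differences follow from the choice and add no independent evidence. The genes that followed Gabra2 most closely were the unclassified transcripts Gm44288 (r = 0.98) and Gm42991 (r = 0.97), for which the adjusted p by limma was 0.0587 and 0.129. They were Plag1 and Rasgrp1 for Gabra4, Ptpn14 and Ncapg2 for Gabra5, Bsdc1 and Lratd1 for Gabrb1, Gm11839 and Usp2 for Gabrb2, and Chek1 and Gemin6 for Gabrg1, with correlations from 0.91 to 0.97 over the same 9 libraries.

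The other genes of the GABA pathway were counted against the share of all genes called, 1.71% for Lhx6 and 0% for Mtg8, so that counts of 0 in lists of this size say little about them. Of the other autosomal subunit genes of the list, 3 were tested in each table and 0 were called. Of 22 genes that anchor the receptor at the synapse or carry it to the membrane, 22 were tested in each table and 0 were called; their log2 fold changes had a median of 0.16 for Lhx6, where that of all genes was -0.037. Of 5 GABA-B receptor genes 4 were tested with 0 calls in either table, and of 3 glycine receptor genes 1 was tested with 0 calls. Among the genes for GABA synthesis, transport and breakdown and for chloride transport, 9 were tested in the Lhx6 table and 1 was called. This was Abat, the enzyme that breaks GABA down, which had 576 ± 65.9 normalized counts in controls and 1269 ± 466.3 in mutants, a log2 fold change of 1.08 ± 0.22 (SE; adjusted p = 0.0256 by limma). Its call was lost without any one of controls 1 to 4 or mutant 5 (adjusted p from 0.0586 to 0.102, log2 fold changes from 1.02 to 1.15), and with name style as covariate (adjusted p = 0.631, log2 fold change 1.04). In the Mtg8 table the same list had 10 genes tested and 0 called, and Abat had a log2 fold change of -0.51 (adjusted p = 0.864 by limma).

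The libraries held markers of the sorted lineage and also, at high levels, those of other cells. Among the markers of MGE interneurons in the Lhx6 comparison, Dlx5 and Dlx6 rose and Lhx6 and Sst fell, and of 8 markers of CGE interneurons Adarb2 rose and Npas1 and Htr3a fell, where 1.71% of all genes were called. The Htr3a call (adjusted p = 0.0451 by limma) was lost by edgeR (0.0612), without a minimum mean (0.0594), with name style (0.966) and without mutant 3 or any 1 control (0.0673 to 0.174), while its log2 fold change, -1.65, was between -1.28 and -1.696 in these fits. With name style the calls of Npas1 (adjusted p = 0.416, log2 fold change -1.68 against -2.0), Dlx5 (0.186, 0.85 against 1.02) and Dlx6 (0.298, 0.97 against 1.66) were lost as well. The summed level of the MGE list ranged from 2808 to 3296 TPM in controls and from 1053 to 1805 TPM in mutants, and that of the CGE list from 62.3 to 84.8 and from 55.1 to 86.2 TPM. Without Sst and Lhx6 the MGE sums overlapped, with 748 to 1018 TPM in controls and 841 to 1483 TPM in mutants, values added after the data were seen. None of the 11 markers of pyramidal neurons, of the 10 of progenitors or of the lists for striatal projection neurons, oligodendrocyte precursors, vessels, microglia and blood was called in either table, beside 1.71% and 0% of all genes. Without a call, 5 of 6 striatal, 8 of 10 progenitor and 4 of 11 pyramidal markers had fold changes above 0 in the Lhx6 comparison. Their medians were 0.63, 0.14 and -0.14 on the log2 scale, against -0.037 for all genes. In the Mtg8 comparison all 11 pyramidal and 9 of 10 progenitor markers had fold changes above 0 without passing the test, with medians of 0.50 and 0.56 on the log2 scale against -0.013 for all genes. Likewise without a call, 3 of 15 MGE interneuron markers (median -0.28), 6 of 8 CGE interneuron markers (median 0.47) and 4 of 4 oligodendrocyte precursor markers (median 2.03) were above 0. Of the listed markers that had values, none was at 0 in every library of a group. Only 8 of 9 CGE, 7 of 8 striatal and 4 of 5 blood markers had values in either comparison, and the absent ones were not checked. The summed pyramidal level was 875 to 1133 TPM in Lhx6 controls and 627 to 920 TPM in mutants, the progenitor level 634 to 746 and 559 to 1088 TPM, and the striatal level 26.0 to 33.0 and 31.7 to 65.8 TPM, the highest in mutant 2. Blood genes ranged from 986 to 10260 and from 279 to 3598 TPM. In the Mtg8 table the MGE level was 3440 to 4008 TPM in controls and 1776 to 2646 TPM in labelled mutants (without Sst and Lhx6, 1032 to 1093 and 669.5 to 1362 TPM), and the CGE level 55.1 to 64.6 and 66.0 to 82.8 TPM. The progenitor level there was 362 to 418 TPM in controls and 497 to 698 TPM in labelled mutants, and the pyramidal level 260 to 649 and 465 to 1073 TPM. The part of these cells in the levels of the subunits was not tested.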

How the data were processed

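RNA of YFP-positive cells was made into cDNA with a low-input kit, and libraries were sequenced as single reads. The authors used fastp 0.20.1 for trimming, STAR 2.7b for alignment and featureCounts 1.6.4 with GENCODE M23 for counting, and removed sex-linked genes, so that subunits on the X chromosome were not analysed here. The deposited signal is a gene's count divided by DESeq2's size factor, with each table normalized alone. The deposited tables also hold the authors' fold changes and p-values, which were not used. Reads recovered from the steps were whole for 100% of values (tolerance 0.01). Each table was fitted alone with limma-trend (limma 3.58.1, R 4.3.3) after log2(normalized count + 1), keeping genes whose mean reached 10, two-sided, Benjamini-Hochberg adjusted over all genes tested, threshold 0.05. Fold changes are on this log2 scale. TPM was computed from the recovered reads and exon lengths. The script was tested on simulated data. Alternatives were pseudocounts of 0.5 and 10, no minimum mean or 50, TMM factors, equal totals, edgeR 4.0.16, DESeq2 1.42.0, name style as covariate, a replicate block and each library left out. Named were the members, 3 genes that check the labels, up to 3 called genes per list and direction, the 2 genes most correlated with each member and genes in or overlapping a member. Some genes that this rule covers are not reported here. The members and lists were chosen with earlier results of these data known. Intervals are limma's confidence intervals for the mean log2 difference between groups, with the spread between embryos as the source of error. They are not ranges within which single embryos lie.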

Additional observations from a re-analysis of the deposited data

Results flagged for a closer look

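Of the 14 sets of 4 or 5 libraries (7 members in Lhx6 controls and in Lhx6 mutants), 2 held a library far from the others by Dixon's criterion, which chance meets in about 1 of 20 sets. Both were mutant 2. Its Gabrb1 value was 87.9 normalized counts, where the other 4 mutants ranged from 26.2 to 40.8, and its Gabrg1 value was 68.5, where they ranged from 4.95 to 22.3. The gap to the next library took 0.762 of the range for Gabrb1 and 0.727 for Gabrg1, against a critical value of 0.71. Mutant 2 also had the highest Gabra2 value, 3586, and the highest summed level of striatal projection neuron markers, 65.8 TPM, where the other mutants had 31.7 to 42.6 TPM. The part of such cells in these values was not tested.

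Gabra2 had fold changes of opposite sign in the 2 comparisons, of which that for Mtg8 did not pass the test. The log2 fold change was 1.66 in the Lhx6 comparison, with all 5 mutants above the control mean, and -0.52 in the Mtg8 comparison (95% interval -1.26 to 0.22, adjusted p = 0.867 by limma), with all 3 labelled mutants below the control mean but within overlapping groups. Without Mtg8 control 4 it was -0.18. Whether the comparisons differ was not tested, since the tables were normalized separately.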

How the results depend on the processing

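Gabrg3 was called higher in the Lhx6 comparison under every alternative run, with log2 fold changes from 2.10 (name style as covariate, a fit that rests on mutant 6 alone) to 2.90 (replicate block). The count of members called there, 2, was 1 with name style as covariate and 1 to 2 with a library left out. The count of all genes called, 286, was 811 by DESeq2, 57 with name style, and 159 to 492 with a library left out, the last without mutant 6. For Mtg8, 0 of 16132 genes became 1 by edgeR, 2 at a minimum mean of 50 and 1 without a minimum. With a library left out the count was 0 to 87, the last without labelled mutant 2. DESeq2 called 31 there, of 25714 genes, with tool and filter again changed together. The cause was not tested.

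The replicate numbers of the labels are not said to pair embryos, and same-numbered libraries had correlations of their deviations of -0.15, 0.0017 and 0.072 in the Lhx6 table and 0.14 and 0.16 in the Mtg8 table. With a replicate block, 94 genes and the same 2 members were called in the Lhx6 comparison, Gabrg1 turned to -0.14, and the calls of Abat (adjusted p = 0.253), Htr3a (0.150) and Dlx5 (0.0773) by limma were lost. In the Mtg8 comparison, where the block rests on 2 pairs, it called 96 genes and 1 member, Gabra2 (log2 fold change -1.15, adjusted p = 0.00648 by limma), and Sst passed (0.000136).

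Some results that were not called changed sign. With name style as covariate, Gabrb1 was -0.29 and Gabrb2 -0.068 in the Lhx6 comparison. With a library left out, Gabrb1 ranged from -0.15 to 0.28 and Gabrg1 from -0.37 to 0.52 there. In the Mtg8 comparison Gabrb1 ranged from -0.28 to 0.69, Gabrg1 from -0.19 to 0.28, Gabrg3 from -0.21 to 0.33 and Adarb2 from -0.071 to 0.85. The log2 ratio of Gabra4 over Gabrb1 in that table ranged from -0.13 to 0.90.

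The difference in the Lhx6 share of Gabrg1 among gamma members, -18.3 percentage points, was -0.11 with all subunits of the class in the denominator. It was -20.3 to -16.9 with a library left out, where fewer libraries raise the smallest exact p and no adjusted p stayed under 0.05 (0.0857 to 0.171). The same loss held for the ratio of Gabrg3 over Gabra5 (0.107 to 0.171). The Lhx6 share of Gabra2 differed by 0.867 points in undated libraries alone, and that of Gabrb1 by -1.06 to 1.95 points with a library left out. In the Mtg8 table the share of Gabrb1 differed by 3.47 points in dated libraries, and that of Gabrg1 by 0.158 points with all subunits of the class, by -11.0 in undated and 10.9 in dated libraries, and by -4.99 to 3.07 points with a library left out.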
